A study of Mus musculus with 8 samples.

Results

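Afp, Alb, Ttr, Ahsg, Fga and Fgl1 encode proteins that liver cells secrete into blood, and their transcripts were measured cell by cell in tumours of the mouse hepatoma line Hepa1-6. The 6 genes were named from what their proteins do, with earlier results of these data known, and they are 6 of the 2000 genes in the table. Hepatoma cells were selected by a value of at least 0.7 for Krt8, an epithelial keratin, and a mean below 0.5 over the immune genes Cd3g, Trbc2, Tyrobp and Fcer1g. This rule held for 32190 of the 53528 cells, or 60.1%. None of the 6 genes was used to choose the cells.

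The labels describe tumours of 4 kinds. The Hepa1-6 cells were either unedited (WT) or edited in Soat1, which the titles call a knockout and the genotype field a knockdown. The animals were given either PBS or an antibody against PD1, injected into the peritoneum. Each of the 4 kinds has a cDNA and an oligo entry, counted as 1 sample, and host strain, age and number of animals are not given in the sources used here. The cells fall into 6 sets by the last number of their names, and no label links a set to a genotype or treatment, so no comparison of the 4 kinds was made. What a set stands for is not stated, and the sets are given below as unassigned groups of cells.

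Liver parenchymal cells make most plasma proteins and release them through the secretory pathway. Afp is the main serum protein of the fetus and falls after birth as Alb rises, and many liver tumours express Afp again. Transcription of this whole class of genes depends on liver-enriched factors, among them the HNF1, HNF4 and C/EBP families. Hypoxia and entry into the cell cycle are both known to alter the transcription of hepatocytes.

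Promoters were matched for 4 of the 6 genes in RefSeq on GRCm38.p6, and the 150 bases before the start of each are printed because HNF1 sites near the start are a known feature of liver secretory genes. The letters GTTAAT, a core of the HNF1 site, are in capitals on either strand (ATTAAC on the minus strand). In order, the windows lie at chr5:90490564-90490713, chr5:90460720-90460869, chr16:22891865-22892014 and chr3:83026003-83026152, all on the plus strand.
Afp: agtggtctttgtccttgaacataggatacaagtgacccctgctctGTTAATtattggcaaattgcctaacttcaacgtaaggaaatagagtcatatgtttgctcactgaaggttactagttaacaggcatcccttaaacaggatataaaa
Alb: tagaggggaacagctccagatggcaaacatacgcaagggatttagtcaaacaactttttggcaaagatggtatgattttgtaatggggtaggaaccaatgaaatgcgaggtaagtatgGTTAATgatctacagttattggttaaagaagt
Ahsg: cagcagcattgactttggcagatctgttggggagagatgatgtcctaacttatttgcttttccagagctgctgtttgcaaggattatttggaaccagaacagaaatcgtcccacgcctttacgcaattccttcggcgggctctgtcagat
Fga: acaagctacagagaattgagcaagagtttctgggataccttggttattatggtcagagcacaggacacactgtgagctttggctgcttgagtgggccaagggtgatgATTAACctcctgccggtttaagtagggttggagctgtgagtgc

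The HNF1 core begins 105 bases before the annotated start of Afp, 32 before that of Alb and 43 before that of Fga, and is not in the Ahsg window. Distances are counted from the RefSeq start, and whether transcription begins there was not tested. Motifs past that start lie outside the windows. Among the 32851 promoter windows of the same length, 3.71% hold it on either strand. The letters TGTTTGC, close to a forkhead site, are in the Afp, Alb and Ahsg windows and in 2.44% of all windows. TATAAA is in the Afp window and in 7.57% of all windows, and CCAAT is in the Afp and Alb windows and in 24.5%. CAAAGNNCA, a relaxed HNF4 site, is in the Afp and Fga windows and in 3.25% of all windows. TTGNNCAA, a relaxed C/EBP site, is in the Fga window and in 3.22%. TTAATNATT, which overlaps the HNF1 core, is in the Afp window and in 0.874%. TATAA, which lies within TATAAA, is in the Afp window and in 14.2%. The full HNF1 palindrome, which contains the core, the strict CAAAGTCCA, the forkhead TGTTTAC and ACGTG, the core letters of a hypoxia response element, are in none of the 4 windows and in 0.00913%, 0.271%, 1.80% and 11.2% of all windows. Ttr and Fgl1 were not in the promoter table. In the genome Alb and Afp are neighbours on chromosome 5, with 14111 bases between them, and Fga sits on chromosome 3 between Fgg and Fgb, the genes of the other fibrinogen chains, 11096 and 8618 bases away. Ahsg is on chromosome 16 and Fgl1 on chromosome 8.

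The sets held 7569 to 11813 cells, and the hepatoma share of a set ran from 42.5% in set 4 to 74.7% in set 1, with a median of 64.1%. Counts of UMIs (molecules tagged before amplification) could be recovered for the 9370 cells of set 1, which had 1001 to 261833 UMIs each and a median of 11098.5. Sets 2 to 6 hold values below 0, which the log of 1 plus a count cannot give. They were therefore adjusted in a way the sources used here do not state, and are given on the deposited natural log scale. Each transcript gives 1 tag at its end, so UMIs per 1000000 UMIs of the pooled cells (CPM) can be compared between genes without a length correction. All intervals below are 95% intervals of the counting alone. Since the cells are 1 pooled sample, no difference was tested. The 6 sets show only how far a value varied between unassigned groups of cells, and for sets 2 to 6 this includes the adjustment. Cell names without their set number recurred in more than 1 set for 12741 of 22421 names, and since these names are not barcode sequences, shared barcodes could not be counted.

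Some cells of the gate carried markers of other cell types. Leaving out the genes that set the gates, the hepatoma cells of set 1 had 3638 CPM summed over 5 hepatoma markers and 14.3 CPM over 4 T cell markers, and T gate cells had 480 and 2069 CPM of these lists. Myeloid or NK gate cells had 1855 and 48.3 CPM. Of the 5 hepatoma markers, Apoe alone had 3068 CPM in hepatoma and 1743 CPM in myeloid or NK gate cells. Markers of normal hepatocytes (Cps1, Cyp3a11 and Mup20) summed to 4.66 CPM. However, 178 of the 7001 hepatoma cells of set 1 had an Afp value below 1.5, and these had 2179 CPM summed over 4 fibroblast markers and 1306 CPM over 6 macrophage markers. The other 6823 cells had 58.0 and 82.7 CPM of these lists. In sets 4 and 6 the share of hepatoma cells with Afp below 1.5 was 5.07% and 4.95%, against 2.44% to 2.99% in the other 4 sets. Values are therefore also given without the 3595 of 32190 cells whose mean over either list was at least 0.3. These marker-rich cells were 21.9% of set 4, 14.8% of set 6 and 8.71% to 9.85% of the other sets. They were chosen by the markers and not by Afp. Over all sets, Afp was below 1.5 in 15.6% of the cells left out and in 1.61% of the 28595 kept. Values without the marker-rich cells thus still include cells with low Afp.

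Of the 2000 genes in the table, Afp and Alb were among the most abundant in hepatoma cells, and the other 4 genes were about an order of magnitude below them. The genes of the table held 15% of the UMIs of set 1, so ranks among all genes are not known. Afp, the fetal serum protein, had 766179 UMIs in the 7001 hepatoma cells of set 1, or 4954 CPM (4943 to 4965), and ranked 2 of the 2000 genes. Alb, the carrier of fatty acids and bilirubin in adult plasma, had 3509 CPM (3500 to 3518) and ranked 5. The 6 genes together made up 1.04% of all UMIs of these cells.

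Ttr, which carries thyroid hormone and the retinol-binding protein, had 484 CPM (481 to 488). Ahsg, or fetuin-A, a plasma inhibitor of mineral deposition, had 506 CPM (502 to 509). Fga, the alpha chain of fibrinogen, had 442 CPM (439 to 446). Fgl1, a fibrinogen-like secreted protein and a ligand of the T cell receptor LAG3, had 475 CPM (472 to 479). These 4 levels span ranks 56 to 69 of 2000. Their order depended on the scale: by mean deposited value in set 1, Fgl1 was highest at 1.34, followed by Ahsg at 1.15, Ttr at 1.07 and Fga at 1.04.

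**Figure D1:**
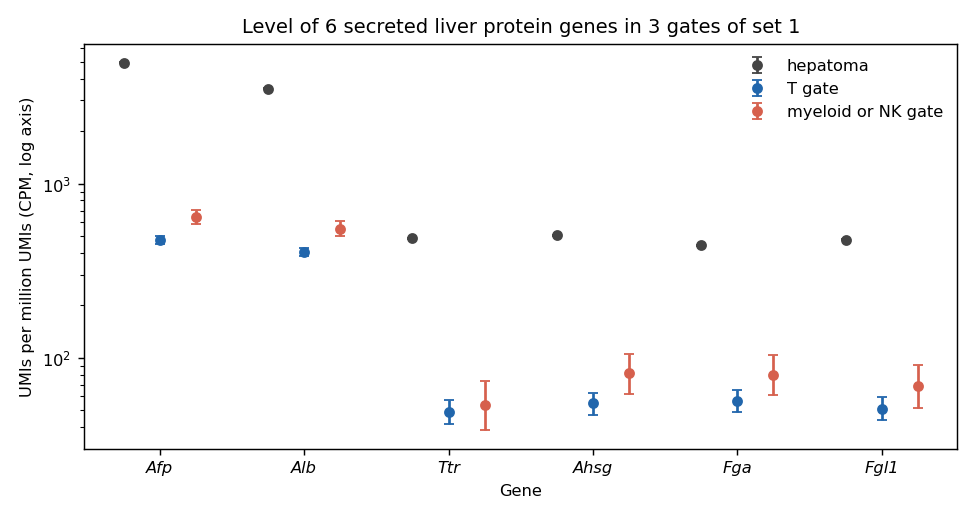
CPM (log axis) of the 6 genes in hepatoma, T gate and myeloid or NK gate cells of set 1, with 95% Poisson intervals. Afp and Alb lie above the other 4 genes in each gate, and every hepatoma level lies above both immune levels.

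Cells differed more in the 4 less abundant genes than in Afp and Alb, most of all in Ahsg and Fga and least in Fgl1. An Afp UMI was found in 99.0% of hepatoma cells and an Alb UMI in 98.4%, with 85.0% for Fgl1, 80.2% for Ahsg, 77.6% for Fga and 74.3% for Ttr. The coefficient of variation across cells, after removal of the Poisson part, was 0.764 for Afp and 0.818 for Alb. It was 1.14 for Fgl1, 1.34 for Ttr, 2.00 for Ahsg and 2.29 for Fga. The tenth of cells with the highest Fga held 56.1% of the summed Fga level per cell, and the corresponding share was 54.1% for Ahsg, 48.4% for Ttr, 40.1% for Fgl1, 29.6% for Afp and 26.8% for Alb. For Fga the median cell was at 126 CPM, well under its pooled level, whereas for Afp the median cell was at 3623 CPM.

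Mean deposited values of hepatoma cells were also taken in each set. Afp ran from 3.42 to 3.52 (median 3.495), Alb from 2.96 to 3.13 (median 3.10) and Ttr from 0.856 to 1.13 (median 1.02). Ahsg ran from 1.15 to 1.24 (median 1.18), Fga from 1.04 to 1.14 (median 1.07) and Fgl1 from 1.33 to 1.38 (median 1.34). Set 4 had the lowest Afp, Alb and Ttr and the highest Fga. Without the cells rich in fibroblast or macrophage markers, set 4 had the highest Afp at 3.73, Ahsg at 1.38, Fga at 1.31 and Fgl1 at 1.57, and still the lowest Ttr at 0.958.

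Just outside the Krt8 limit in set 1, 15 cells with values of 0.5 to 0.7 had 1715 CPM of Afp and 1429 CPM of Alb. Just inside it, 51 cells with values of 0.7 to 0.9 had 2579 and 2147 CPM. Ahsg was 223 CPM outside and 124 CPM inside, Fga 131 and 137 CPM, Fgl1 139 and 267 CPM and Ttr 556 and 621 CPM.

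Hepatoma cells with high expression of mitotic genes had less Ahsg, Fga and Fgl1 than those with low expression and a smaller deficit of Afp and Alb, while the direction for Ttr depended on depth. Cells of each set were divided into tertiles by the mean of 35 G2M genes, among them Top2a, Ube2c and Cdk1. In set 1, Ahsg was 274 CPM in the upper tertile and 753 CPM in the lower, a ratio of 0.363 (0.357 to 0.370). Fga was 241 against 653 CPM, a ratio of 0.369 (0.362 to 0.377), and Fgl1 was 261 against 712 CPM, a ratio of 0.366 (0.359 to 0.373). These 3 genes thus shared nearly 1 ratio, and their middle tertiles lay between, at 616, 541 and 571 CPM. Afp was 3988 against 5931 CPM (ratio 0.672, 0.669 to 0.676), and Alb was 3043 against 4072 CPM (ratio 0.747, 0.742 to 0.752). Ttr was the exception, at 516 against 448 CPM (ratio 1.15, 1.13 to 1.17), but with UMI totals held to the middle tertile its log2 ratio was -0.065.

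By a fold of 2, 3 of the 6 genes were lower in the upper G2M tertile, where 13% of the 1819 genes tested were lower, and 0 were higher, where 9.79% were. The median log2 ratio of the 6 was -1.003, beside -0.11 over all genes tested. The cells of the upper tertile were deeper, with a median of 21751 UMIs against 11956. Summed fibroblast markers were 37.2 CPM in the upper and 163 CPM in the lower tertile, and macrophage markers 73.5 and 109 CPM. Their part in the ratios was not tested beyond leaving out the marker-rich cells, which gave a median of -1.04.

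Tertiles by 17 S phase genes, such as Pcna, Mcm3 and Rrm2, gave nearly the same picture, and 77.2% of the upper S tertile also lay in the upper G2M tertile. The ratio was 0.372 for Ahsg, 0.389 for Fga and 0.369 for Fgl1, against 0.702 for Afp, 0.773 for Alb and 1.26 for Ttr. The log2 ratio of Ttr was -0.12 at middle UMI totals. Lower by a fold of 2 were 3 of the 6 genes, against 11.5% of all genes tested, and higher were 0, against 9.02%.

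In the other sets the ordering of the 6 genes along the G2M axis was similar on the deposited scale. The upper tertile minus the lower was -0.55 to -0.40 for Fgl1 (median -0.49), -0.45 to -0.35 for Ahsg (median -0.41) and -0.34 to -0.21 for Fga (median -0.33), below 0 in all 6 sets. Alb was also lower in all 6, by smaller amounts (-0.22 to -0.06). Afp lay between -0.12 and 0.02 and was above 0 only in set 6. Ttr lay between -0.06 and 0.20 and was below 0 only in set 4. Without the marker-rich cells, Afp was below 0 in all 6 sets (-0.22 to -0.11), and Ttr was below 0 in sets 4 and 5 (-0.13 to 0.20 over the 6). A natural log of single-cell values weighs cells equally, so it moves less with the cells of very high level than pooled CPM does.

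**Figure D2:**
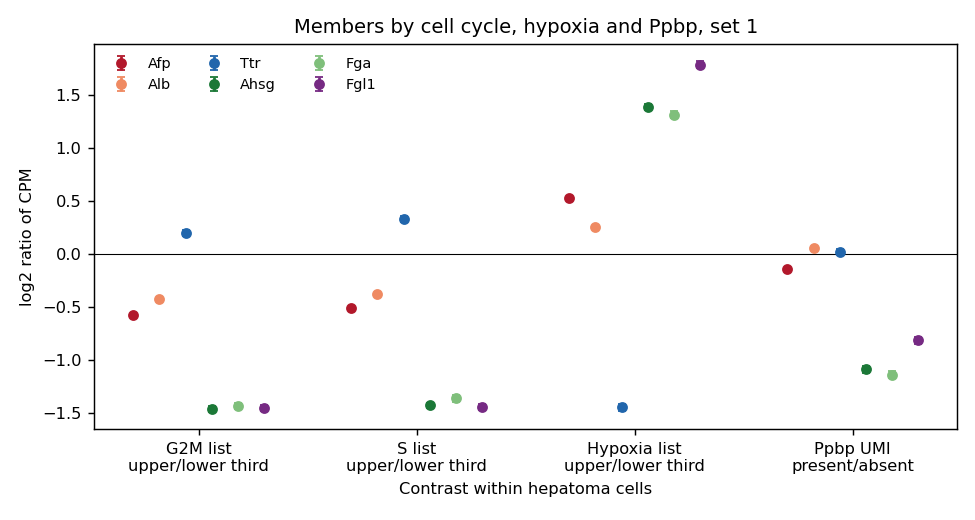
Log2 ratio of CPM in set 1 for each gene along 4 axes in hepatoma cells: upper over lower tertile of the G2M, S and hypoxia lists, and Ppbp UMI present over absent, with 95% counting intervals. Ahsg, Fga and Fgl1 stay together on each axis, below 0 for G2M, S and Ppbp and above 0 for hypoxia, and Ttr at -1.44 is the single gene below 0 for hypoxia.

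Along a hypoxia axis Fgl1, Ahsg and Fga were the genes with the greatest excess, and Ttr stood lower. Tertiles were taken by the mean of 13 hypoxia genes, among them Ndrg1, Bnip3 and Pgk1, which respond to low oxygen. Fgl1 was 793 CPM in the upper tertile of set 1 and 229 CPM in the lower, a ratio of 3.46 (3.39 to 3.53). Ahsg was 753 against 287 CPM (ratio 2.62, 2.57 to 2.67), and Fga was 623 against 250 CPM (ratio 2.495, 2.44 to 2.55). Afp was 5720 against 3965 CPM (ratio 1.44, 1.43 to 1.45), and Alb was 3869 against 3242 CPM (ratio 1.19, 1.19 to 1.20). Ttr alone was lower, at 246 against 671 CPM (ratio 0.367, 0.359 to 0.375).

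Higher by a fold of 2 were 3 of the 6 genes, against 10% of all genes tested, and lower was 1, against 20.8%. The median log2 ratio was 0.92, beside -0.32 over all genes tested. Median depth was nearly equal, with 15623 UMIs in the upper and 15650 in the lower tertile. Holding totals to the middle tertile nevertheless gave a median log2 ratio of 0.56, with -0.028 for Alb, 0.33 for Afp and 0.79 for Fga. Macrophage markers summed to 35.9 CPM in the upper and 160 CPM in the lower tertile, and fibroblast markers to 43.3 and 123 CPM. Without the marker-rich cells the median log2 ratio was 0.90.

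In all 6 sets Fgl1 was higher in the upper hypoxia tertile, by 0.829 to 1.15 on the natural log scale (median 0.898). Ahsg was higher by 0.466 to 0.735 and Fga by 0.374 to 0.635. Afp was higher by 0.224 to 0.381 in sets 1, 2, 3 and 5, and by 1.00 and 0.806 in sets 4 and 6. Ttr was lower by the differences -0.48, -0.40, -0.25 and -0.18 in sets 1, 2, 3 and 5, but the difference was 0.175 in set 4 and 0.0513 in set 6. In the lower hypoxia tertile of sets 4 and 6, 11.9% and 11.5% of cells had Afp below 1.5, against 3.90% to 5.57% in the other 4 sets. The mean over macrophage markers there was 0.480 and 0.349, against 0.163 to 0.181. Without the marker-rich cells, Ttr was lower in the upper hypoxia tertile of all 6 sets (-0.61 to -0.08), and Afp was higher by 0.0826 to 0.354. Fgl1, Ahsg and Fga remained higher in all 6, by 0.783 to 0.883, 0.433 to 0.535 and 0.351 to 0.444. Alb was then higher in 5 of 6 sets, with -0.03 in set 1.

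**Figure D3:**
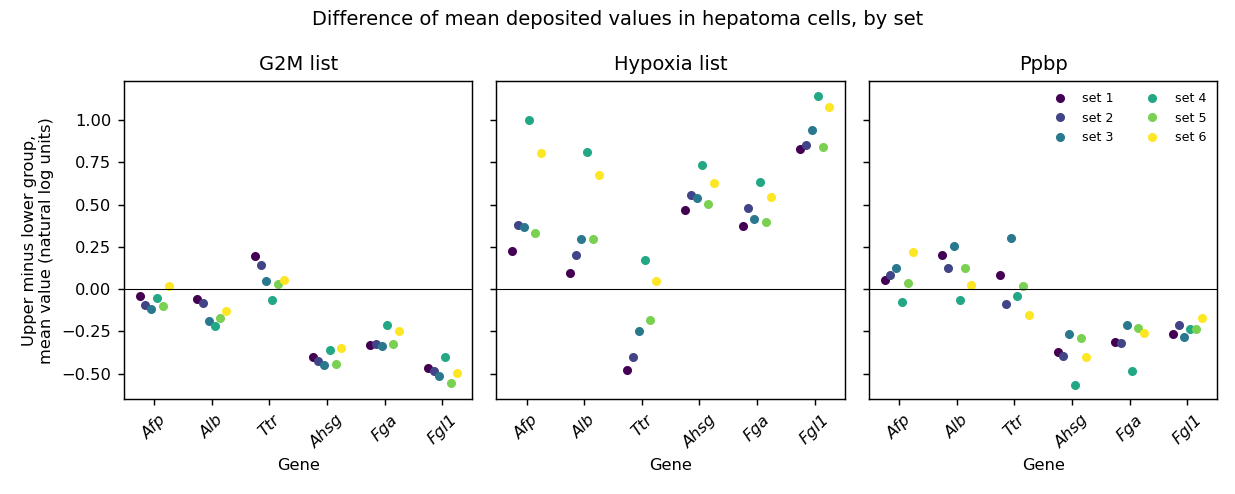
Difference of mean deposited value (natural log units) between the upper and lower group of hepatoma cells for each gene, with 1 point per set: G2M tertiles, hypoxia tertiles, and Ppbp (tertiles, or UMI present against absent in set 1). Ahsg, Fga and Fgl1 lie on the same side of 0 in all 6 sets in each panel, and Afp and Alb in sets 4 and 6 stand above the other sets for hypoxia.

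Cells high in hypoxia genes were seldom high in mitotic genes: 7.12% of the upper hypoxia tertile lay in the upper G2M tertile, against 57.3% of the lower. The hypoxia contrast was therefore repeated among the cells of the lower G2M tertile, with 778 cells on each side. Fgl1 was 813 CPM in the upper and 456 CPM in the lower hypoxia cells, a ratio of 1.78 (1.72 to 1.84), and Ttr was 216 against 904 CPM, a ratio of 0.239 (0.230 to 0.249). For the other 4 genes the ratio lay near 1: Ahsg 1.11, Fga 0.968, Afp 0.940 and Alb 0.940. In pooled counts of set 1, Fgl1, Ttr and, by a small margin, Ahsg (1.08 to 1.15) thus kept their direction, and Afp and Alb turned. The interval of Fga (0.936 to 1.002) held 1. Depth differed within this contrast, with a median of 14434 UMIs in the upper and 8727.5 in the lower group. With UMI totals also held to the middle tertile (272 cells a side), the ratios were 1.61 for Fgl1, 0.263 for Ttr, 1.24 for Ahsg, 0.876 for Fga, 0.782 for Afp and 0.766 for Alb.

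On the deposited scale, the same contrast within the lower G2M tertile gave Fgl1 higher in all 6 sets, by 0.639 to 1.28. Ahsg, Fga, Afp and Alb were also above 0 in all 6, at 0.235 to 0.776, 0.136 to 0.684, 0.0840 to 1.19 and 0.0917 to 1.03. Ttr was below 0 in 4 sets (lowest -0.50) and above 0 in sets 4 and 6, at 0.109 and 0.0305. With the marker-rich cells left out, Fgl1 was higher in all 6 sets (0.373 to 0.645), Ahsg in all 6 (0.0339 to 0.314) and Fga in 3 (median -0.013). Afp and Alb were then above 0 in sets 4 and 6 only (medians -0.20 and -0.12), and Ttr was below 0 in all 6 (-0.71 to -0.29). The direction of Afp, Alb and Fga therefore depended on pooling and on the marker-rich cells.

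The G2M contrast was repeated within the lower hypoxia tertile in the same way. Ahsg was 232 against 432 CPM (ratio 0.538, 0.517 to 0.559), Fga 196 against 365 CPM (ratio 0.537, 0.514 to 0.560) and Fgl1 202 against 327 CPM (ratio 0.620, 0.593 to 0.648). Ttr was then lower too, at 613 against 908 CPM (ratio 0.675), with 0.827 for Afp and 0.870 for Alb. The cells with high G2M values had a median of 27154 UMIs and the others 8736. With totals in the middle tertile the ratios ran from 0.507 for Ahsg to 0.788 for Afp. On the deposited scale this contrast gave no single direction. Ahsg and Fga were above 0 in 3 of 6 sets (medians -0.039 and -0.0091), Fgl1 and Ttr in 5 (medians 0.106 and 0.0622), and Afp and Alb in all 6. With the marker-rich cells left out, Ahsg (-0.28 to -0.010), Fga (-0.24 to -0.062) and Fgl1 (-0.13 to -0.053) were below 0 in all 6 sets. Ttr and Alb were then above 0 in set 6 only, and Afp in sets 2 and 6.

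Ttr differed most along another axis. Cells were divided into tertiles by the mean of Slco1b2, a hepatocyte uptake transporter, Wif1, a secreted Wnt inhibitor, and Spp2, a secreted phosphoprotein. These genes were chosen with their relation to Ttr in view, so the values describe the axis only. Ttr was 933 CPM in the upper tertile and 82.3 CPM in the lower, a ratio of 11.3 (10.9 to 11.7). Ahsg had a ratio of 1.51, Fga 1.39, Alb 1.35, Afp 1.11 and Fgl1 0.901. The upper tertile had a median of 21525 UMIs and the lower 11281.5. Fibroblast markers summed to 14.7 and 208 CPM and macrophage markers to 35.8 and 166 CPM. Without the marker-rich cells the ratio of Ttr was 10.5 and that of Fgl1 0.843, and at middle UMI totals they were 10.9 and 0.998. On the deposited scale all 6 genes were above 0 in all 6 sets, with Ttr at 0.961 to 1.48, Afp at 0.632 to 1.40 and Fgl1 at 0.175 to 0.937, the opposite of its pooled ratio. Higher by a fold of 2 was 1 of the 6 genes, against 9.73% of genes tested, and lower were 0, against 25.1%. The upper tertile lay less often among hypoxia-high cells, with 13.6% in the upper hypoxia tertile against 49.2% of the lower tertile. Within the upper tertile of the 3 genes, Ttr was 810 CPM in hypoxia-high and 1007 CPM in hypoxia-low cells, a ratio of 0.805, while Fga had 2.84, Fgl1 2.81 and Ahsg 2.26.

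Hepatoma cells with UMIs of Ppbp, a CXC chemokine best known from platelets, had less Ahsg, Fga and Fgl1. In set 1, 915 hepatoma cells had a Ppbp UMI and 6086 had none. Ahsg was 269 against 571 CPM (ratio 0.471, 0.461 to 0.482), Fga 228 against 501 CPM (ratio 0.454, 0.444 to 0.466) and Fgl1 298 against 524 CPM (ratio 0.569, 0.557 to 0.581). Afp had a ratio of 0.910 (0.905 to 0.916), Alb 1.04 (1.04 to 1.05) and Ttr 1.02 (1.00 to 1.04). At middle UMI totals the log2 ratios of Alb and Ttr were -0.18 and -0.45. Lower by a fold of 2 were 2 of the 6 genes, against 6.21% of genes tested, and higher were 0, against 0.275%.

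The levels of Ahsg, Fga and Fgl1 fell with the number of Ppbp UMIs. Ahsg was 571 CPM with none, 360 CPM with 1 (547 cells), 194 CPM with 2 to 5 (282 cells) and 78.8 CPM with 6 or more (86 cells). Fga was 501, 270, 216 and 74.5 CPM in the same groups. Fgl1 was 524, 352, 258 and 175 CPM. The other genes had no order: Ttr was 482, 527, 493 and 328 CPM, Alb 3477, 3659, 3535 and 3734 CPM and Afp 5052, 4771, 4158 and 5066 CPM. Depth moved with Ppbp as well, since the median was 14418.5 UMIs without Ppbp and 29176 with it. It rose through the groups with Ppbp, at 26006, 33300 and 39834.5 UMIs, and its part in the falling levels was not tested. Macrophage markers summed to 107 CPM without Ppbp and 32.9 CPM with it, and fibroblast markers to 83.8 and 32.8 CPM.

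In all 6 sets the difference by Ppbp was below 0 for Ahsg (-0.57 to -0.27), Fga (-0.49 to -0.21) and Fgl1 (-0.28 to -0.17). The contrast was not the same in each set. Set 1 compared cells with a Ppbp UMI with those without, and sets 2 to 6 the upper with the lower tertile of the adjusted Ppbp value. In set 1, 13.1% of hepatoma cells had a Ppbp UMI, and how many cells of those upper tertiles had any is not known. Sets 2 to 6 are therefore not a repeat of the set 1 contrast. Afp and Alb were above 0 in 5 of 6 sets and Ttr in 3. Without the marker-rich cells, Ahsg, Fga and Fgl1 were lower in all 6 sets again, and Afp was above 0 in set 2 only.

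UMIs of all 6 genes were also found in immune cells, at 9.60% to 12.8% of the hepatoma level in 1 gate and 11.1% to 18.1% in another. The T gate took cells with Krt8 below 0.7 and a mean of Cd3g and Trbc2 of at least 1, and held 669 cells of set 1. Afp was 475 CPM there, or 9.60% (9.13 to 10.1) of its hepatoma level. The other percentages were 11.5% for Alb (10.9 to 12.2), 10.1% for Ttr (8.65 to 11.8), 10.8% for Ahsg (9.31 to 12.5), 12.8% for Fga (11.1 to 14.8) and 10.7% for Fgl1 (9.21 to 12.5). The intervals of Ttr, Ahsg, Fgl1 and Afp overlap, and those of Alb and Fga lie above that of Afp. In comparison, 19 other secreted liver genes at 100 CPM or more had 7.92% to 19.7% with a median of 12.9%, and all 254 genes of that level had a median of 19.9%. Krt8 stood at 2.03%, but low Krt8 chose the T gate.

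The makeup of the UMIs was alike. Of the UMIs of the 6 genes, Afp took 47.8% in hepatoma cells, 43.6% in T gate cells and 43.6% in myeloid or NK gate cells, and Alb took 33.8%, 37.1% and 37.2%. The myeloid or NK gate held 252 cells of set 1 with Krt8 below 0.7, a mean of Tyrobp and Fcer1g of at least 1 and T genes below 0.5. There the percentages of the hepatoma level were 12.99% for Afp, 15.7% for Alb, 11.1% for Ttr, 16.1% for Ahsg, 18.1% for Fga and 14.5% for Fgl1. In that gate the 19 other secreted liver genes had 11.4% to 82.2% with a median of 19.6%, and the 254 genes had a median of 38.3%. Among cells of middle UMI totals the T gate percentages ran from 6.89% (Fgl1) to 14.6% (Fga), over 80 cells. In the 10 myeloid or NK gate cells of those totals Ahsg was 8.35%, Fgl1 9.21% and Ttr 19.7%. Whether these UMIs came from free RNA, from cells joined in a droplet or from the immune cells was not tested.

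**Figure D4:**
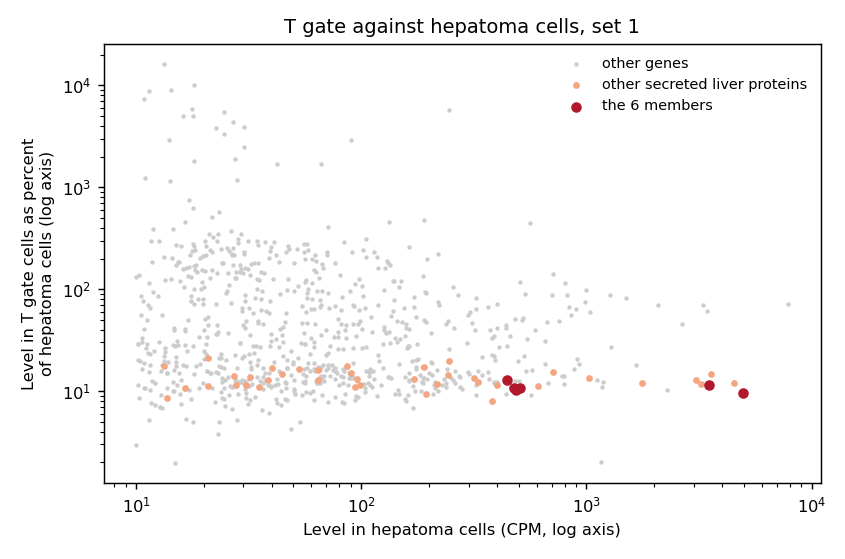
Level in T gate cells as a percent of hepatoma cells against the hepatoma level (both log axes), set 1, with 1 point per gene. The 6 genes lie between 9.60% and 12.8%, in the lower band of points together with most other secreted liver genes.

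Most immune cells carried such UMIs, and deeper cells carried more. In the T gate a cell had 2.28, 4.12 and 10.3 UMIs of the 6 genes in the lower, middle and upper tertile of depth, whose median totals were 1505, 3367 and 8664. The corresponding levels were 1436, 1168 and 1011 CPM, so the share of UMIs was highest in the shallowest cells. In the myeloid or NK gate a cell had 2.60, 2.85 and 7.30 UMIs. An Afp UMI was present in 81.2% of T gate cells (78.0 to 84.1), at a median of 3367 UMIs, beside 99.0% of hepatoma cells, at a median of 16171. With every cell thinned to 1000 UMIs, no cell was left out and Afp was detected in 89.0% of hepatoma, 41.6% of T gate and 49.2% of myeloid or NK gate cells. Ttr was then detected in 24.2%, 4.93% and 3.17%. Mean Afp values of T gate cells lay between 1.35 and 1.54 in the 6 sets (median 1.48).

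Within hepatoma cells the 6 genes varied together to different degrees. Pearson correlations of deposited values over cells were computed in each set, over 3313 to 7737 cells, and are given as the median of 6 sets. The cells differ in depth, and whether the cells of a set share a library is not stated. Afp and Alb, the neighbours on chromosome 5, had 0.648 (0.622 to 0.690). Ahsg and Fga, on different chromosomes, had 0.645 (0.605 to 0.680), Fga and Fgl1 0.5995 and Ahsg and Fgl1 0.568. Ttr was the least linked, with 0.178 to Fgl1 (0.114 to 0.363), 0.274 to Fga and 0.307 to Ahsg, and 0.418 to Alb. Thinning set 1 to 1000 UMIs lowered the values, to 0.354 for Afp and Alb, 0.306 for Ahsg and Fga and 0.0161 for Ttr and Fgl1. Correlation with the log of the UMI total was 0.435 for Alb, 0.2997 for Afp, 0.294 for Ttr and 0.129 to 0.134 for Ahsg, Fga and Fgl1.

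**Figure D5:**
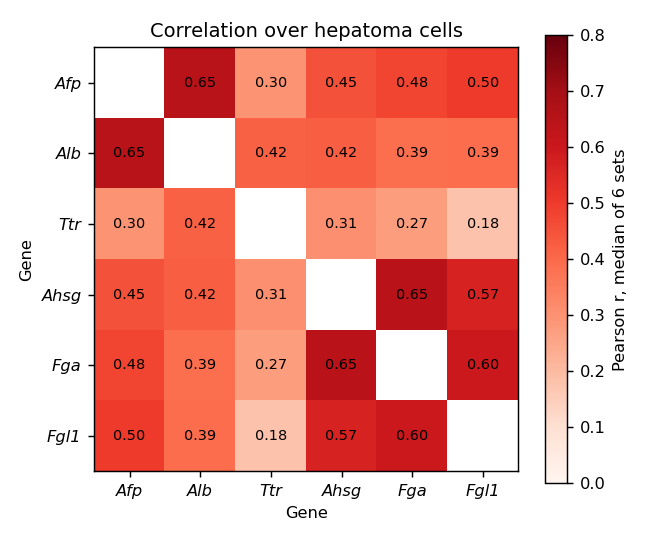
Pearson correlation of deposited values over hepatoma cells for each pair of the 6 genes, median of 6 sets. The highest are Afp with Alb and Ahsg with Fga, at 0.65 each, and the lowest is Ttr with Fgl1, at 0.18.

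The genes of the table most like each member were chosen by the same median correlation. For Afp they were Trf (0.680), the iron carrier of plasma, Alb, Fgb (0.620), Igfbp1 (0.619) and Itih2 (0.584), and for Alb they were Afp, Trf (0.630), Fgb (0.620), Rbp4 (0.610) and Itih2 (0.598). For Fga they were Fgg (0.725), Kng1 (0.665), Ahsg, Fgb (0.643) and Fgl1, so both other fibrinogen chains were among its 5. For Ahsg they were Kng1 (0.674), the kininogen gene, Fga, Fgg (0.620), Pzp (0.610) and Fgb (0.575). For Fgl1 they were Fgg (0.630), Fgb (0.621), Kng1 (0.616), Fga and Ahsg. Ttr had a set of its own: Spp2 (0.619), Wif1 (0.563), Akr1c6 (0.486), Gsta3 (0.483) and Agt (0.483).

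At the other end, Afp was least like Tmsb4x (-0.39), H2-K1 (-0.38) and Gsn (-0.35), and Alb least like Tmsb4x (-0.43), H2-K1 (-0.40) and Lcp1 (-0.35). H2-K1 had 90.01 CPM in hepatoma and 2599 CPM in T gate cells, Lcp1 30.3 and 1176 CPM, and Tmsb4x 246 and 14169 CPM, while Gsn had 25.02 CPM in hepatoma and 376 CPM in myeloid or NK gate cells. With the marker-rich cells left out, the correlations with Afp were -0.20, -0.17 and -0.17, and those with Alb -0.29, -0.26 and -0.22. Ttr was least like Ly6a (-0.27), Tff2 (-0.27) and Krt19 (-0.25). Ahsg was least like Anxa3 (-0.27), Anxa1 (-0.27) and Aldh1a1 (-0.25), and Fga least like the same 3 genes (-0.23, -0.22 and -0.23). Fgl1 was least like Ccnd1 (-0.24), Hmgb2 (-0.24) and Cyba (-0.23), of which Ccnd1 encodes a cyclin of the first gap phase. Cyba had -0.087 and Ccnd1 -0.33 once the marker-rich cells were left out.

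Other secreted liver proteins were counted along the same axes. Of 69 in the table, 67 had at least 30 UMIs in hepatoma cells of set 1. By a fold of 2, 17 were lower and 1 was higher in the upper G2M tertile, 18 lower and 1 higher in the upper S tertile, 18 higher and 3 lower in the upper hypoxia tertile, and 5 lower and 0 higher with Ppbp. Of all genes tested, 13%, 11.5%, 20.8% and 6.21% were lower and 9.79%, 9.02%, 10% and 0.275% higher along these 4 axes. Their median log2 ratios were -0.52, -0.62, 0.36 and -0.52. Among the most abundant, Igfbp1, which binds insulin-like growth factors, had 4502 CPM and log2 ratios of -1.36 for G2M and 1.71 for hypoxia. Fgb had -0.91 and 0.88, Trf had -0.40 and 0.19, and Apoe, the lipoprotein ligand, had 0.06 and -0.25. Of 7 liver transcription factors, 0 were past a fold of 2 for G2M, S or Ppbp, and 1 was lower for hypoxia. Of 9 oncofetal genes, 3 were lower for G2M, and 1 was higher and 1 lower for hypoxia. Of 7 genes of the secretory pathway and stress, 3 were lower for G2M and 3 higher for hypoxia, among them Ddit3 with -1.71 and 2.34.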

How the data were processed

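Droplet-based 3′ single-cell RNA sequencing was used (DNBelab C4). Alignment used STAR 2.7.2b, per the submitters' processing notes, and UMIs were counted with PISA, per the labels' protocols. Those notes name both GRCh38 and mm10, so the build is unsure. The authors deposited natural log values, and in set 1 each was the natural log of 1 plus the UMIs per 10000 UMIs of the cell, from which whole UMI counts were recovered for 100% of its cells. All 53528 columns belong to no known sample. CPM was computed over summed UMIs, with exact Poisson, conditional ratio and Clopper-Pearson intervals at the 95% level. Log2 ratios used a pseudocount of 1 CPM. Genes needed 30 UMIs to be tested. Genes named were the 6 members, for each the 5 most and 3 least correlated genes, and at most the 4 most abundant of a list. Members and lists were chosen with earlier results of these data known, and the contrasts within 1 tertile of another axis, the Slco1b2, Wif1 and Spp2 axis and the marker-rich cells were added after seeing the data. Doublets called by Scrublet in set 1 (91 of 9370) were kept, and leaving them out was an alternative. Near the limits lay 463 cells within 0.2 of the Krt8 limit and 1059 with Krt8 of at least 0.7 and an immune mean within 0.1 of 0.5. Calculations used Python 3.11.15, NumPy 2.4.6, SciPy 1.17.1 and Scanpy 1.11.5. The ratio intervals and the recovery of UMI totals were tried on simulated counts. Those for the ratios had Poisson variation only, without the further variation between cells, so they cannot show how the intervals hold beyond counting.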

Additional observations from a re-analysis of the deposited data

Results flagged for a closer look

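In hepatoma cells, set 4 stood apart from the other sets in 2 of the 42 groups of 6 set values examined. Its mean Afp was 3.42, with the nearest set at 3.49 and the highest at 3.52, and its mean Alb was 2.96, with the nearest at 3.08 and the highest at 3.13. The gap was 0.651 of the range for Afp and 0.739 for Alb, above Dixon's 95% limit for 6 values. Chance flags about 1 in 20 such groups, so 2 of 42 is close to the rate of chance. Set 4 is also among the sets with adjusted values. Without cells rich in fibroblast or macrophage markers, set 4 had 3.73 for Afp, the highest of the 6, and 3.20 for Alb.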

How the results depend on the processing

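Of 390 member values under alternatives, 186 stayed within the counting interval, 190 moved with the same sign and 14 reversed. The summed level of the 6 genes, 10371 CPM, was 10484 with a Krt8 minimum of 1.5, 10451 with an immune mean below 0.2, 9255 as a mean over cells, 9305 thinned to 1000 UMIs, 10389 without called doublets, 9726 in the middle tertile of UMI totals and 10522 without marker-rich cells. The median log2 ratio for G2M, -1.003, was -0.75 as a mean over cells, -0.77 thinned, -0.78 at middle totals, -1.04 without marker-rich cells, -0.80 by a median split, -0.99 with a pseudocount of 10, -0.63 within the lower hypoxia tertile and -0.72 there at middle totals. For S, -0.94 was -0.64, -0.65, -0.71 and -0.62 as a mean over cells, thinned, at middle totals and by a median split. For hypoxia, 0.92 was 0.75, 0.69, 0.56, 0.90 and 0.75 as a mean over cells, thinned, at middle totals, without marker-rich cells and by a median split, and reversed to -0.068 within the lower G2M tertile and -0.27 there at middle totals. For Ppbp, -0.47 was -0.40, -0.42, -0.66 and -0.67 as a mean over cells, thinned, at middle totals and with at least 2 Ppbp UMIs.

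Reversed log2 ratios were, for Ttr along G2M, -0.57 within the lower hypoxia tertile, -0.82 there at middle totals and -0.065 at middle totals alone, and for Ttr along S -0.12 at middle totals. Along hypoxia within the lower G2M tertile, Afp and Alb were -0.089 each and Fga -0.046, and at middle totals there -0.35, -0.38 and -0.19. Alb was -0.028 at middle totals along hypoxia and -0.18 along Ppbp, where Ttr was -0.45, and -0.10 with at least 2 Ppbp UMIs. The cause was not tested. The median T gate percentage, 10.8%, was 12.3% as a mean over cells and 12.4% thinned, and that of the myeloid or NK gate, 15.1%, was 18.6% and 21.6%. The median correlation in set 1, 0.389, was 0.382 with a Krt8 minimum of 1.5, 0.187 thinned and 0.382 without marker-rich cells.

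No paired analysis was possible because no cell column is mapped to a genotype or treatment group, and no samples pair across groups. UMI counts were recovered for set 1 alone, and 1 pooled sample gives no replicate error, so the intervals hold for counting only. Ttr, Ahsg, Fga and Fgl1 rest on 39 to 59 UMIs in the myeloid or NK gate, and few immune cells of set 1 limit those percentages.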
